A study of Mus musculus with 32 samples.

Results

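The genes described here encode the constitutive proteasome, its regulatory particles, its assembly factors and its inhibitor. They were taken as the symbols of the Psma to Psmg families with a number, leaving out the immunoproteasome subunits Psmb8, Psmb9 and Psmb10, and each was read from its brightest array feature that names 1 gene alone. This rule found 46 of the 22180 genes measured. Kidneys of male mice of strain 129 were profiled on 32 Affymetrix Mouse Gene 2.0 ST arrays, 1 per mouse, in 4 groups of 8. Col4a3-/- mice (KO) lack a chain of the collagen IV network of the glomerular basement membrane, and their Col4a3+/+ littermates (WT) served as controls. The groups were KO at 7 weeks, WT at 7 weeks, KO at 4 weeks and WT at 4 weeks. The values are gene-level log2 signals, so a difference of 1 is a doubling.

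The proteasome is the cell's main protease for proteins tagged with ubiquitin. Its core is a barrel of stacked alpha and beta rings, and 3 beta subunits, Psmb5, Psmb6 and Psmb7, carry the active sites. A regulatory particle made of a base with 6 ATPases and of a lid recognises, unfolds and threads tagged proteins into the barrel. Other caps can replace it: Psme1 and Psme2 build a mixed ring that is induced by interferon gamma, Psme3 builds a nuclear ring and Psme4 is a single large cap. Under interferon, Psmb8, Psmb9 and Psmb10 take the places of Psmb5, Psmb6 and Psmb7 and form the immunoproteasome, which favours peptides for antigen presentation.

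Of the 46 genes, 44 encode parts, caps, inhibitors or assembly factors of the proteasome. The other two, Psmc3ip and Psme3ip1, match the symbols only: Psmc3ip acts in meiotic recombination and Psme3ip1 binds the Psme3 ring. The alpha subunit Psma4 was not among the 46, because its features also name AY074887. Its brighter feature differed by -0.16 between KO and WT mice at 7 weeks and by -0.40 between 7 and 4 weeks in WT mice, with no test made here. Of the 46, 5 had a mean below the median gene (6.27): Psma5, Psmg3, Psmc3ip, the testis subunit Psma8 and the thymus subunit Psmb11. Values this low carry little information about a transcript. Psma5, Psmc2 and Psmg2 had a second, dimmer feature. The Psmc2 features gave the same difference between KO and WT mice at 7 weeks, -0.25 each. Those of Psmg2 gave -0.09 on the feature used and -0.31 on the dimmer one.

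The arrays of a group correlated at 0.965 to 0.995. The targeted gene Col4a3 lay between 6.97 and 7.87 in KO mice at 7 weeks, against 8.74 to 9.06 in WT mice, and between 7.60 and 8.42 in KO mice at 4 weeks, against 8.46 to 9.33 in WT mice. The proximal tubule transporter Slc34a1 and the loop of Henle protein Umod stood above 12 on every array, as fits the labelled tissue. WT 4-week replicate 8 stood apart in interferon genes: its summed signal over 14 such genes was 6746, against 1163 to 1538 in the other 7 WT mice of that age. Results for Psme1 and the immunoproteasome subunits are given with and without it. At 7 weeks KO kidneys carried more signal of macrophage markers, with sums over 12 genes of 4776 to 13268 in KO and 1478 to 1886 in WT mice, and less of proximal tubule markers, with sums over 7 genes of 18878 to 34690 in KO and 35716 to 38430 in WT mice. Macrophage markers rose in 12 of 12 cases, against 15.6% of all genes, and proximal tubule markers fell in 7 of 7, against 16.7%. The part that these shifts play in the proteasome results was not tested, and in whole kidney fewer cells of a type and less RNA per cell cannot be told apart.

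The promoters of 4 genes are shown because the results turn on them: Psme1 and Psmd8 rose in KO mice at 7 weeks, Psme4 fell, and Psme2 is the ring partner of Psme1. Each runs 5′ to 3′ from 250 bases before the gene's start to 50 bases after it, from RefSeq on GRCm38.p6. Capitals mark matches, on either strand, to any of 6 motifs whose letters are spelled out after the sequences.
Psme1 (chr14:55578244-55578543, plus strand): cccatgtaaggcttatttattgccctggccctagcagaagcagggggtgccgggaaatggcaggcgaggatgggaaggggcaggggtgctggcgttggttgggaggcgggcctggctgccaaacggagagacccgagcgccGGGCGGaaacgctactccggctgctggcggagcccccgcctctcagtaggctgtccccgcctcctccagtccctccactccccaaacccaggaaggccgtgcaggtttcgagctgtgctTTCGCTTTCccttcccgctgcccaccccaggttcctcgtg
Psme2 (chr14:55591052-55591351, minus strand): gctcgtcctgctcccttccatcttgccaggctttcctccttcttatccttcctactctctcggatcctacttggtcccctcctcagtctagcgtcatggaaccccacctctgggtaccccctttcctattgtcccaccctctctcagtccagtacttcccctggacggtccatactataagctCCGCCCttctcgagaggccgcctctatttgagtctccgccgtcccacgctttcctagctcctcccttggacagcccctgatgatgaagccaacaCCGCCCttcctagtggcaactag
Psmd8 (chr7:29180624-29180923, minus strand): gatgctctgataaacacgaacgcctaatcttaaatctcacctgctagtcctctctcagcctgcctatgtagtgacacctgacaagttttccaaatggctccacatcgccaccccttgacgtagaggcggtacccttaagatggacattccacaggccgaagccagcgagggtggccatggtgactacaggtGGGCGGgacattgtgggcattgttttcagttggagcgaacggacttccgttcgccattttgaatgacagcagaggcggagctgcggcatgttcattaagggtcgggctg
Psme4 (chr11:30771525-30771824, plus strand): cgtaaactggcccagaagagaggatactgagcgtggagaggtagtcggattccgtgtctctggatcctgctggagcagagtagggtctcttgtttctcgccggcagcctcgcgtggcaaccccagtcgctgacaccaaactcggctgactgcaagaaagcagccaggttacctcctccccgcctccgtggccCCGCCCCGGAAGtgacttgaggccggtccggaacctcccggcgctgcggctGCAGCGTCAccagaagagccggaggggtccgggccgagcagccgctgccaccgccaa

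The Psme1 window held an interferon response core that begins 11 bases into the transcript, read on the minus strand, and a GC box. The Psme2 window held GC boxes only, and so did that of Psmd8. The Psme4 window held an antioxidant response core across the start, and an ETS site that overlaps a GC box. RefSeq promoters were matched for 38 of the 46 genes, 42 promoters in all. The ETS site, spelled CCGGAAG, stood in 40.5% of those 42, against 8.86% of all 32851 promoters in the table. The interferon response core (GAAANNGAA) stood in 16.7%, namely those of Psmb3, Psmb4, Psmc2, Psmd4, Psmd9, Psme1 and Psmg4, against 8.56% of all promoters. The GC box, spelled GGGCGG, stood in 54.8% of the promoters of these genes, against 35.7% of all. The antioxidant response core (TGACNNNGC) stood in 14.3%, against 12.4% of all, and the STAT site (TTCNNNGAA) in 4.76%, against 8.3%. The remaining motif, a bare CCAAT box, stood in 35.7%, against 37.4% of all promoters. These matches describe letters and not binding.

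Setting KO beside WT kidneys at 7 weeks asks which proteasome genes differ at the later age. The interferon-inducible cap subunit Psme1 and the lid subunit Psmd8 rose, while the lid subunit Psmd3, the base assembly chaperone Psmd9, the core assembly chaperone Psmg1, the ATPase Psmc2 and the cap Psme4 fell. Thus 2 of 46 genes were higher (4.35%) and 5 lower (10.9%), at an adjusted p below 0.05, where 15.6% of all genes were higher and 16.7% lower. In this fit of all 4 groups as deposited, both shares lie below those of all genes, but the lower share depends on the settings. With each array centred on its median, 22 of the 46 genes were lower (47.8%), against 37.5% of all genes. Then 2 were higher (4.35%), against 11.6%. On the deposited values, 23.9% were lower with only the compared groups in the fit, against 21% of all genes. The exact rank-sum test called 23.9% lower, against 19.2%. Centring on the median deviation left the lower share below, at 10.9% against 13.1%. Leaving out genes below the median gene in mean signal kept 41 of the 46. Of these, 14.6% were lower, against 26.6% of all genes kept, and 4.88% higher, against 22.8%. The differences were also small: their median size was 0.08 over the 46 genes, against 0.16 over all genes, and no gene reached 1.5-fold. The signed medians were -0.05 for the 46 and -0.06 for all genes.

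**Figure D1:**
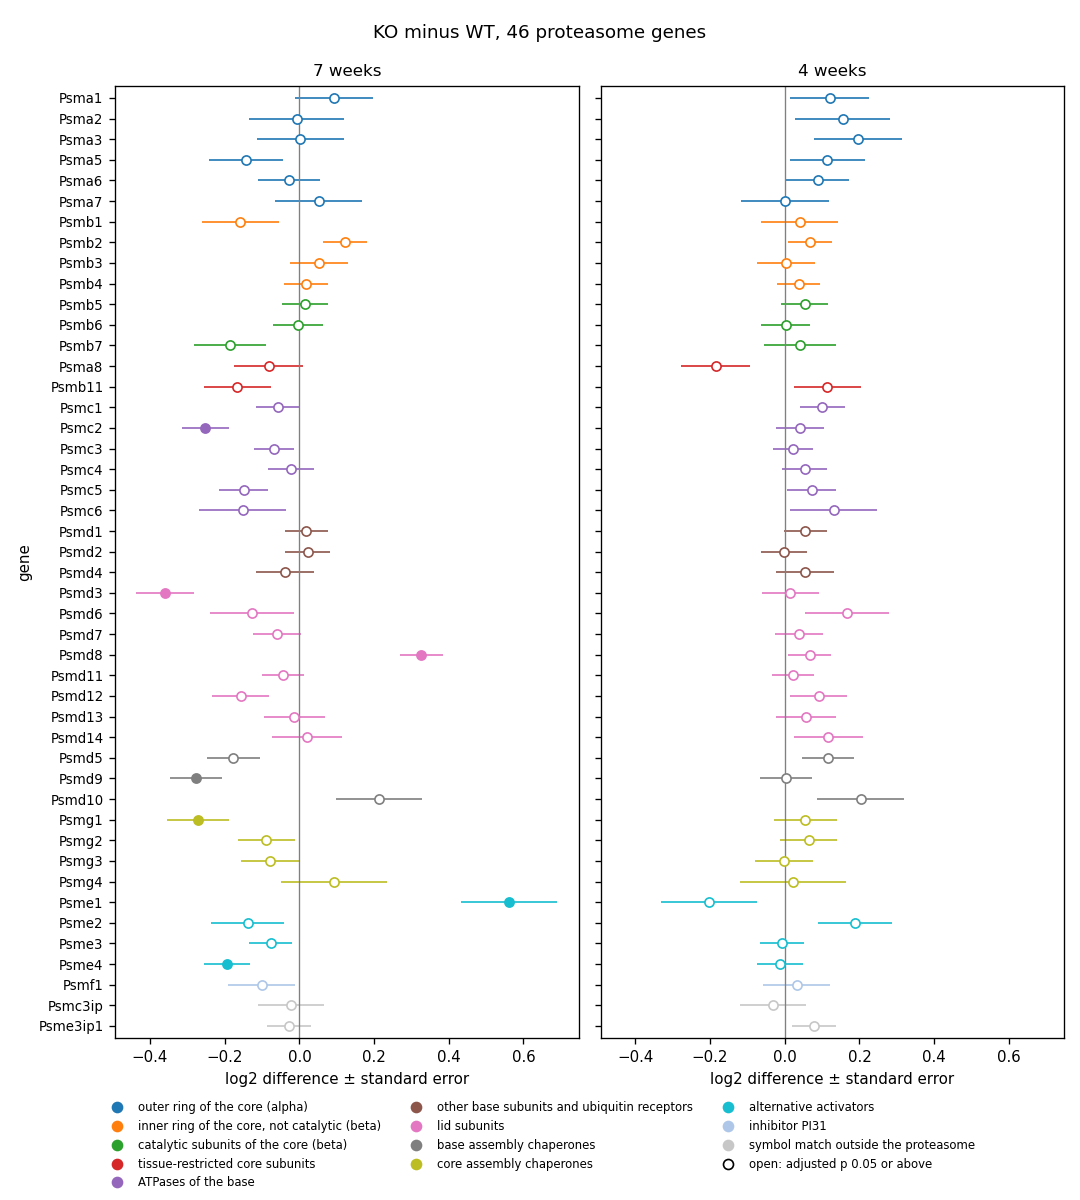
KO minus WT differences (log2, error bars are standard errors, n = 8 mice per group) of the 46 genes at 7 weeks on the left and at 4 weeks on the right, coloured by role. Filled points passed at adjusted p below 0.05: 7 at 7 weeks, with Psme1 farthest right at 0.56 and Psmd3 farthest left at -0.36, and none at 4 weeks.

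Among the caps, Psme1 had the largest difference of the 46 genes. Its log2 signal was 8.21 at the lowest, 8.56 at the median and 8.80 at the highest in KO mice, against 7.91, 7.95 and 8.07 in WT mice. The groups did not overlap, and the difference was 0.56 ± 0.13 (limma estimate ± standard error, adjusted p = 0.000766, n = 8 per group). Without WT 4-week replicate 8 in the fit, it was 0.56 ± 0.08 (adjusted p = 1.22e-06). Psme2, which shares the ring with Psme1, did not pass. It spanned 6.81, 7.25 and 7.48 in KO mice, against 7.01, 7.36 and 7.59 in WT mice. The ranges overlapped almost throughout (-0.14 ± 0.10, adjusted p = 0.299). The array holds another feature for Psme2, which also names 9930111J21Rik1 and 9930111J21Rik2, and this one differed by 0.41 in the opposite direction. Which of the features reports Psme2 transcripts was not tested, so no direction is given for that gene.

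Psme4 spanned 9.99, 10.14 and 10.39 in KO mice, against 10.16, 10.38 and 10.51 in WT mice. Its groups overlapped, and it fell by 0.19 (standard error 0.06, adjusted p = 0.0151); an exact rank-sum test did not call it. The nuclear cap Psme3 (-0.08 ± 0.06, adjusted p = 0.337) and the inhibitor Psmf1, also called PI31 (-0.10 ± 0.09, adjusted p = 0.421), did not pass.

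The lid held both a gene that rose and one that fell. Psmd8 spanned 10.82, 11.10 and 11.17 in KO mice, against 10.65, 10.75 and 10.81 in WT mice. The lowest KO mouse lay just above the highest WT mouse (0.33 ± 0.06, adjusted p = 3.36e-05). Psmd3 spanned 8.78, 8.98 and 9.18 in KO mice, against 9.20, 9.35 and 9.41 in WT mice. All 8 KO mice stood under all 8 WT mice, by a narrow gap at the edge (-0.36 ± 0.08, adjusted p = 0.000408). The other 6 lid genes, among them the deubiquitinase Psmd14 (0.02 ± 0.09), did not pass.

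In the base, the ATPase Psmc2 spanned 8.11, 8.27 and 8.42 in KO mice, against 8.45, 8.53 and 8.58 in WT mice. These groups were separate too (-0.25 ± 0.06, adjusted p = 0.00234). The other 5 ATPases lay between -0.15 and -0.02 and did not pass, nor did the ubiquitin receptor Psmd4 or the scaffolds Psmd1 and Psmd2.

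Of the assembly factors, Psmd9, a chaperone of the base, spanned 6.39, 6.71 and 6.99 in KO mice, against 6.77, 6.96 and 7.24 in WT mice. The groups overlapped, with most KO mice below all WT mice (-0.28 ± 0.07, adjusted p = 0.00227). Psmg1, a chaperone that pairs alpha subunits into a ring, spanned 7.37, 7.52 and 7.63 in KO mice, against 7.58, 7.76 and 7.96 in WT mice. Its groups overlapped at the edges (-0.27 ± 0.08, adjusted p = 0.0117). Psmd5, another base chaperone, stood at 9.50, 9.63 and 9.74 in KO mice, against 9.77, 9.79 and 9.91 in WT mice. Its groups did not overlap although limma left it just outside the threshold (-0.18 ± 0.07, adjusted p = 0.0529). That fit shares 1 estimate of spread over all 4 groups. The SD of Psmd5 was 0.09 (KO) and 0.05 (WT) at 7 weeks, and 0.21 (KO) and 0.13 (WT) at 4 weeks. With only the compared groups in the fit, Psmd5 passed. The base chaperone Psmd10, known as gankyrin, had 0.21 ± 0.12 (adjusted p = 0.165), and it too passed with only the compared groups.

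**Figure D2:**
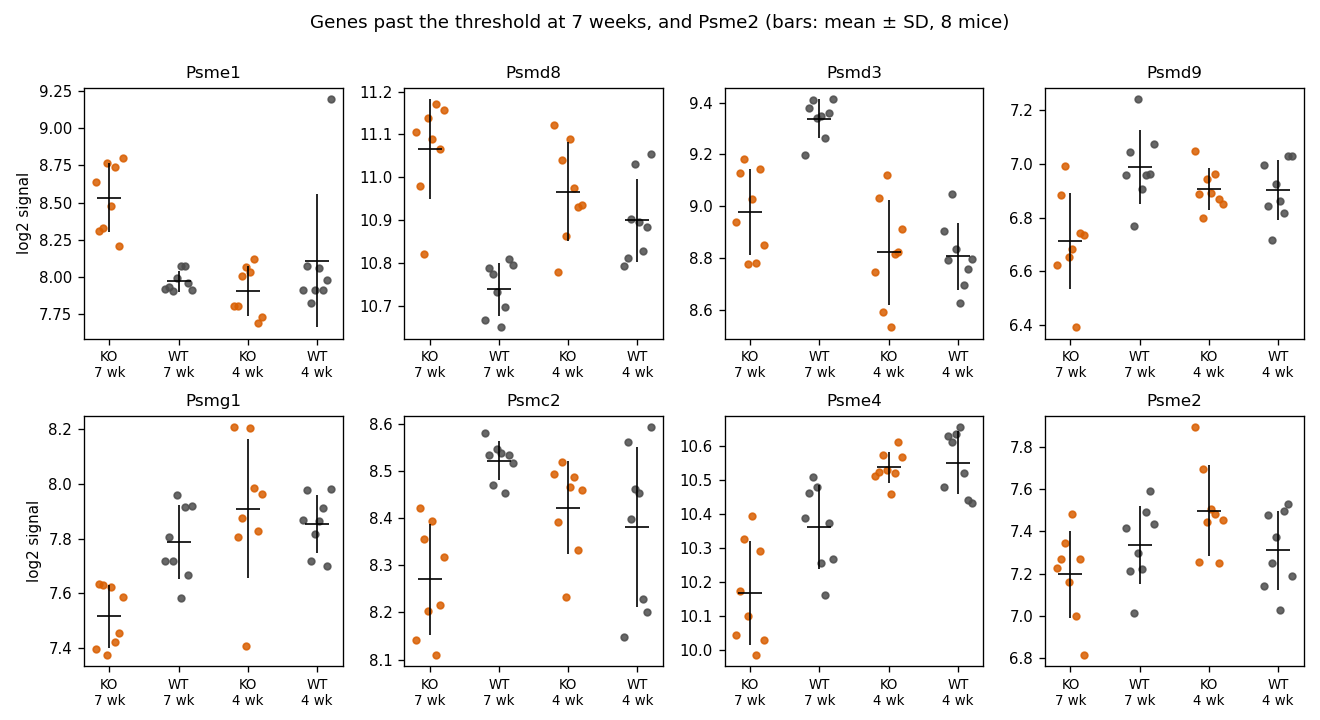
log2 signal of the 7 genes past the threshold at 7 weeks and of Psme2, 1 point per mouse, with KO left of WT at 7 weeks and then at 4 weeks; bars are means ± SD of 8 mice. Psme1, Psmd8, Psmd3 and Psmc2 part the genotypes fully at 7 weeks, and the Psme1 point at 9.19 is WT 4-week replicate 8.

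Of the barrel, none of the 6 alpha genes, the 4 beta genes without an active site and the 3 catalytic genes passed in limma as deposited. Under other settings some did: Psmb7 was lower with array median centring, array weights, only the compared groups in the fit, the rank-sum test and without the 3 arrays of lowest weight, Psmb1 with 3 of these settings, Psma5 with array median centring, and Psmb2 was higher with array weights and with median-deviation centring. Psmb5, the chymotrypsin-like site, spanned 11.51, 11.58 and 11.60 in KO mice, against 11.43, 11.56 and 11.68 in WT mice, a difference of 0.02 with a 95% interval of -0.11 to 0.14. Psmb6, the caspase-like site, spanned 8.35, 8.55 and 8.69 in KO mice, against 8.45, 8.56 and 8.62 in WT mice, with an interval of -0.14 to 0.13. Psmb7, the trypsin-like site, spanned 8.30, 8.50 and 8.63 in KO mice, against 8.52, 8.67 and 8.87 in WT mice, with a difference of -0.19 and an interval of -0.38 to 0.01. KO and WT mice thus overlapped for each catalytic gene.

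Each of these 3 genes has a counterpart in the immunoproteasome, and the counterparts rose at 7 weeks: Psmb8 by 1.04 ± 0.25 (adjusted p = 0.00132), Psmb9 by 0.89 (adjusted p = 0.0418) and Psmb10 by 1.498 (adjusted p = 2.27e-05). WT 4-week replicate 8 enters these errors through the shared estimate of spread. Without it limma gave the same differences, with standard errors of 0.10, 0.10 and 0.11. The adjusted p were then 8.27e-10, 9.59e-09 and 1.69e-12. The difference between each counterpart and its constitutive partner was taken within each array, which removes any shift common to that array. A level of such a difference has no meaning by itself, since probes differ, but its change between groups does. At 7 weeks Psmb10 minus Psmb7 had a mean of 0.19 ± 0.36 among KO mice and of -1.49 ± 0.16 among WT mice (SD, n = 8 each), a change of 1.68. For Psmb8 minus Psmb5 the averages were -4.51 ± 0.20 in KO and -5.53 ± 0.26 in WT mice, a change of 1.03. For Psmb9 minus Psmb6 they were -1.58 ± 0.26 in KO and -2.47 ± 0.16 in WT mice, a change of 0.89. In all 3 pairs 8 of 8 KO mice lay above every WT mouse, and the two-sided exact permutation p was 0.000155, the smallest that the 12870 splits can give (0.000311 after adjustment over 6 comparisons).

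At 4 weeks the 3 changes were -0.04 for Psmb10 minus Psmb7, -0.25 for Psmb8 minus Psmb5 and -0.23 for Psmb9 minus Psmb6 (exact permutation, adjusted p = 0.988 each). All 3 signs turned without WT replicate 8, and that of Psmb10 minus Psmb7 also without KO replicate 8 (0.02). Without WT replicate 8 the changes were 0.30, 0.06 and 0.27, and that of Psmb9 minus Psmb6 passed (exact permutation, adjusted p = 0.0359), while the other two did not (adjusted p = 0.101 and 0.573).

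**Figure D3:**
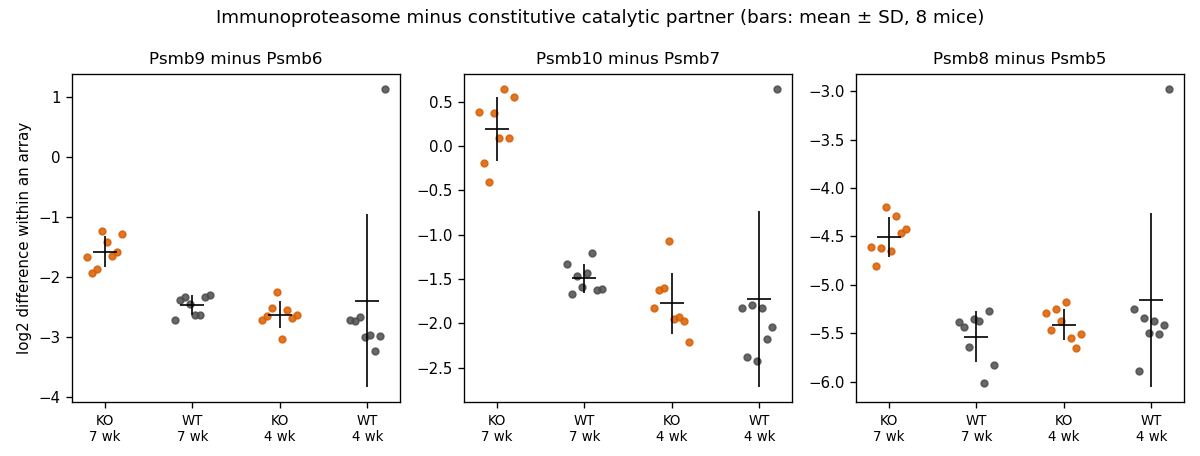
Within-array log2 difference between each immunoproteasome subunit and its constitutive partner, 1 point per mouse, KO left of WT at 7 weeks and then at 4 weeks; bars are means ± SD of 8 mice. At 7 weeks all KO points stand above all WT points in each panel, by 1.68 on average for Psmb10 minus Psmb7, and 1 WT mouse at 4 weeks stands far above the rest.

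At 4 weeks none of the 46 genes passed in limma in either direction, where 0.0316% of all genes were higher and 0.00902% lower. At an unadjusted p below 0.05 there were 0 genes higher and 0 lower, and the exact rank-sum test called 0 as well. KO minus WT was positive for 39 genes and negative for 7, with a median of 0.05 against -0.005 over all genes. These signs are not independent: within the 4-week mice, 29 of the 46 genes correlated above 0.5 with the alpha ring mean. No test was made on the signs. The largest differences in limma were those of gankyrin, Psmd10 (0.20 ± 0.12, adjusted p = 0.609), and Psme1 (-0.20 ± 0.13, adjusted p = 0.649). The alpha subunit Psma3 (0.20 ± 0.12, adjusted p = 0.624) and Psme2 (0.19 ± 0.10, adjusted p = 0.572) followed. The catalytic genes were close to 0: 0.05 for Psmb5 (95% interval -0.07 to 0.18), 0.00 for Psmb6 (-0.13 to 0.14) and 0.04 for Psmb7 (-0.16 to 0.24). Psmd10 spanned 8.51, 9.23 and 9.66 in KO mice, against 8.62, 8.92 and 9.24 in WT mice. Psma3 spanned 9.43, 10.17 and 10.54 in KO mice, against 9.55, 9.87 and 10.38 in WT mice. Both genes varied more within a group than between the groups. Psme1 spanned 7.69, 7.91 and 8.12 in KO mice, against 7.82, 7.95 and 9.19 in WT mice. The WT maximum is replicate 8, and without it the Psme1 difference shrank to -0.05.

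The test of whether the genotype effect differed between 7 and 4 weeks called 2 genes higher (4.35%) and 4 lower (8.7%), against 9.8% and 7.24% of all genes. With dim genes, those below the median gene in mean signal, left out, the lower share fell below the background. It was 12.2%, against 14.4% of the genes kept, and the higher share was 4.88%, against 16.1%. The effect on Psme1 was more positive at 7 weeks by 0.76 ± 0.18 (adjusted p = 0.00301), and by 0.61 without WT 4-week replicate 8 (adjusted p = 0.000342). Psmd8 followed with 0.26 ± 0.08 (adjusted p = 0.0251). The effect was more negative for Psmd3 (-0.37 ± 0.11, adjusted p = 0.0154), Psmc2 (-0.29 ± 0.09, adjusted p = 0.022), Psmd5 (-0.29 ± 0.10, adjusted p = 0.0391) and Psmd9 (-0.28 ± 0.10, adjusted p = 0.0478). Psmd5 and Psmd9 were weakly held. With each of the 32 mice left out in turn, Psmd5 was lost in 16 cases and Psmd9 in 24, while the other 4 genes were kept in all 32. Psmd8 lost its call when each array was centred on its median.

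Between 4 and 7 weeks the kidney still grows, and as deposited more proteasome genes passed with age than with genotype. In WT mice 7 genes were higher at 7 weeks (15.2%) and 12 lower (26.1%), against 15.4% and 14.1% of all genes. In KO mice 6 were higher (13%) and 22 lower (47.8%), against 21.4% and 21.3% of all genes. The 22 include the dim Psma5 and the dim thymus subunit Psmb11 (-0.30), which the filter on dim genes removes. The share of lower genes stood above that of all genes in both genotypes. It also did with that filter, at 56.1% against 30.3% of the genes kept in KO mice and 34.1% against 24.8% in WT mice. The higher shares were then 14.6% against 35.8% in KO mice and 17.1% against 30.8% in WT mice. In WT mice the higher share thus lay below that of the genes kept, although it was close to that of all genes without the filter. With each array centred on its median, 31 of the 46 genes were lower in KO mice (67.4%), against 32.6% of all genes, and 7 in WT mice (15.2%), against 12.2% of all genes. Under that centring age in WT mice called 7 genes in each direction, fewer in all than genotype at 7 weeks did. With single mice of the 16 left out, the calls lost most often were Psmb3 (13 cases), Psmg4 (12) and Psma1 (10) in WT mice and Psmb6, Psmd14 and Psmg2 (6 each) in KO mice. Psmd8 (5), Psmc5 (2) and Psme4 (1) were lost at times in WT mice, and Psmd9 (2) and Psme3 (1) in KO mice. Without WT 4-week replicate 8, 15 of the 19 calls in WT mice were kept. Those of Psma1, Psmb3, Psmd8 and Psmg4 were lost, and Psmc2 was gained. The median difference was -0.17 in KO mice, against -0.06 over all genes, and -0.08 in WT mice, against -0.01 over all genes.

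**Figure D4:**
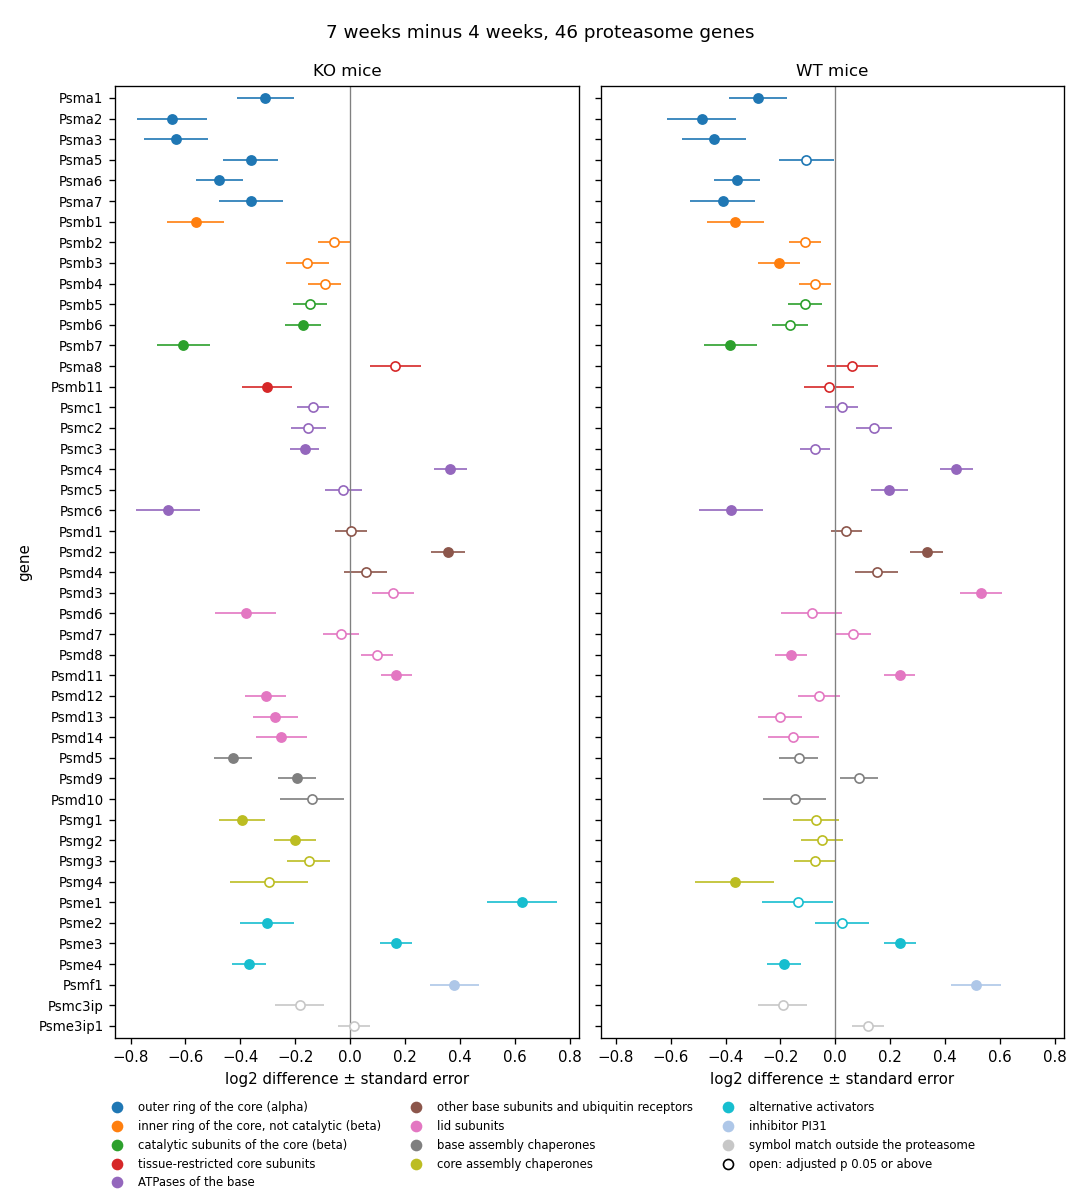
Differences between 7 and 4 weeks (log2, 7 minus 4 weeks, error bars are standard errors, n = 8 mice per group) in KO mice on the left and WT mice on the right, coloured by role; filled points passed at adjusted p below 0.05. The alpha genes lie left of 0 in both genotypes, while Psmc4, Psmd2, Psmf1, Psmd11 and Psme3 lie right of it.

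All 6 of its measured genes were lower at 7 weeks in KO mice, with differences of -0.65 to -0.31, and 5 of 6 in WT mice, where the dim Psma5 did not pass. The call of Psma5 in KO mice was lost when its features were averaged, and its dimmer feature differed by -0.07. Psma2 spanned 9.53, 9.59 and 9.80 at 7 weeks, against 9.65, 10.30 and 10.82 at 4 weeks in KO mice (-0.65 ± 0.13, adjusted p = 9.12e-05). In WT mice Psma2 spanned 9.55, 9.62 and 9.72 at 7 weeks, against 9.74, 10.10 and 10.61 at 4 weeks (-0.49 ± 0.13, adjusted p = 0.00348). The ages were separate in WT mice and overlapped in KO mice. Psma3 spanned 9.34, 9.45 and 9.59 at 7 weeks in KO mice and 9.23, 9.46 and 9.58 in WT mice, below most of its 4-week values. It fell by 0.64 in KO mice (adjusted p = 4.04e-05) and by 0.44 in WT mice (adjusted p = 0.00402). Psma7 spanned 8.47, 8.58 and 8.67 at 7 weeks, against 8.43, 8.93 and 9.45 at 4 weeks in KO mice, and in WT mice 8.35, 8.53 and 8.68 at 7 weeks, against 8.58, 8.93 and 9.43 at 4 weeks. Both genotypes overlapped between the ages, and Psma7 fell by 0.36 in KO mice (adjusted p = 0.0128) and by 0.41 in WT mice (adjusted p = 0.00739). None of these genes passed the test of a difference between the genotypes.

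Of the beta genes, the catalytic Psmb7 and the structural Psmb1 fell in both genotypes. Psmb7 spanned 8.30, 8.50 and 8.63 at 7 weeks, against 8.51, 9.18 and 9.52 at 4 weeks in KO mice (-0.61 ± 0.10, adjusted p = 4.37e-06). In WT mice it spanned 8.52, 8.67 and 8.87 at 7 weeks, against 8.75, 9.07 and 9.25 at 4 weeks, and fell by 0.38 (adjusted p = 0.00252). The ages overlapped in both genotypes. Psmb6 fell by 0.17 in KO mice (adjusted p = 0.0338) and did not pass in WT mice (-0.17 ± 0.07, adjusted p = 0.0553). Psmb5, with -0.15 in KO and -0.11 in WT mice, passed in neither (adjusted p = 0.0548 and 0.202).

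The base moved both ways. The ATPase Psmc6 spanned 9.84, 9.89 and 10.09 at 7 weeks, against 9.89, 10.67 and 11.02 at 4 weeks in KO mice (-0.66 ± 0.12, adjusted p = 2.09e-05), and it fell by 0.38 in WT mice (adjusted p = 0.0122). The ATPase Psmc4 spanned 10.72, 10.82 and 10.91 at 7 weeks, against 10.36, 10.45 and 10.54 at 4 weeks in KO mice. In WT mice it spanned 10.76, 10.83 and 10.97 at 7 weeks, against 10.22, 10.31 and 10.62 at 4 weeks. The ages did not overlap in either genotype, and Psmc4 rose by 0.37 ± 0.06 in KO mice (adjusted p = 1.11e-05) and by 0.44 ± 0.06 in WT mice (adjusted p = 2.65e-06). Psmd2, the scaffold that docks ubiquitin shuttles, spanned 10.24, 10.31 and 10.37 at 7 weeks, against 9.72, 9.96 and 10.17 at 4 weeks in KO mice, and in WT mice 10.23, 10.28 and 10.37 at 7 weeks, against 9.81, 9.94 and 10.14 at 4 weeks. Again every 7-week mouse stood above every 4-week mouse of its genotype. Psmd2 rose by 0.36 ± 0.06 in KO mice (adjusted p = 1.42e-05) and by 0.33 ± 0.06 in WT mice (adjusted p = 9.1e-05).

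Psmf1, the inhibitor, spanned 8.89, 9.04 and 9.23 at 7 weeks, against 8.28, 8.72 and 9.06 at 4 weeks in KO mice. In WT mice it spanned 8.98, 9.13 and 9.39 at 7 weeks, against 8.41, 8.65 and 8.90 at 4 weeks, with no overlap. It rose by 0.38 ± 0.09 in KO mice (adjusted p = 0.000836) and by 0.51 ± 0.09 in WT mice (adjusted p = 5.36e-05). The lid gene Psmd11 and the nuclear cap Psme3 rose in both genotypes as well, and Psmc5 in WT mice. The lid gene Psmd3 rose by 0.53 ± 0.08 in WT mice (adjusted p = 4.77e-06) and had 0.16 ± 0.08 in KO mice (adjusted p = 0.104). In WT mice its range was 9.20, 9.35 and 9.41 at 7 weeks, against 8.63, 8.79 and 9.05 at 4 weeks. The mean of KO mice, 8.98 at 7 weeks, was thus not below their mean of 8.82 at 4 weeks.

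Psme1 had the opposite course. It rose by 0.63 ± 0.13 with age in KO mice (adjusted p = 0.00016). Without WT 4-week replicate 8 in the fit, that rise was 0.63 ± 0.08 (adjusted p = 1.58e-07). In WT mice Psme1 had -0.14 ± 0.13 (adjusted p = 0.48), and 0.02 without replicate 8. Psme4 fell with age in both genotypes, by 0.37 in KO mice (adjusted p = 1.15e-05) and by 0.19 in WT mice (adjusted p = 0.0204). Psme2 fell by 0.30 in KO mice on the feature used (adjusted p = 0.0126), and had -0.01 on the feature shared with the other transcripts.

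The 4-week mice varied far more than the 7-week mice. The median SD of the 46 genes was 0.104 (KO) and 0.0842 (WT) at 7 weeks, and 0.180 (KO) and 0.168 (WT) at 4 weeks. Over all genes it was 0.165 (KO) and 0.159 (WT) at 7 weeks, and 0.208 (KO) and 0.196 (WT) at 4 weeks. The mean of the alpha ring, as its deviation from the WT 4-week mean, ran from -0.43 to -0.25 in KO and from -0.39 to -0.29 in WT mice at 7 weeks. At 4 weeks it ran from -0.41 to 0.52 in KO and from -0.29 to 0.39 in WT mice. Of the 4-week mice, only KO replicate 4 (-0.41) and WT replicate 1 (-0.29) lay within the range of the 7-week mice. The array of KO replicate 4 had the lowest array weight of the series (0.34). The KO maximum at 4 weeks, 0.52, was replicate 5, and the WT maximum, 0.39, was replicate 8. Their arrays had the next lowest weights (0.39 and 0.56). WT replicate 1 lay near the upper edge of the WT mice at 7 weeks.

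**Figure D5:**
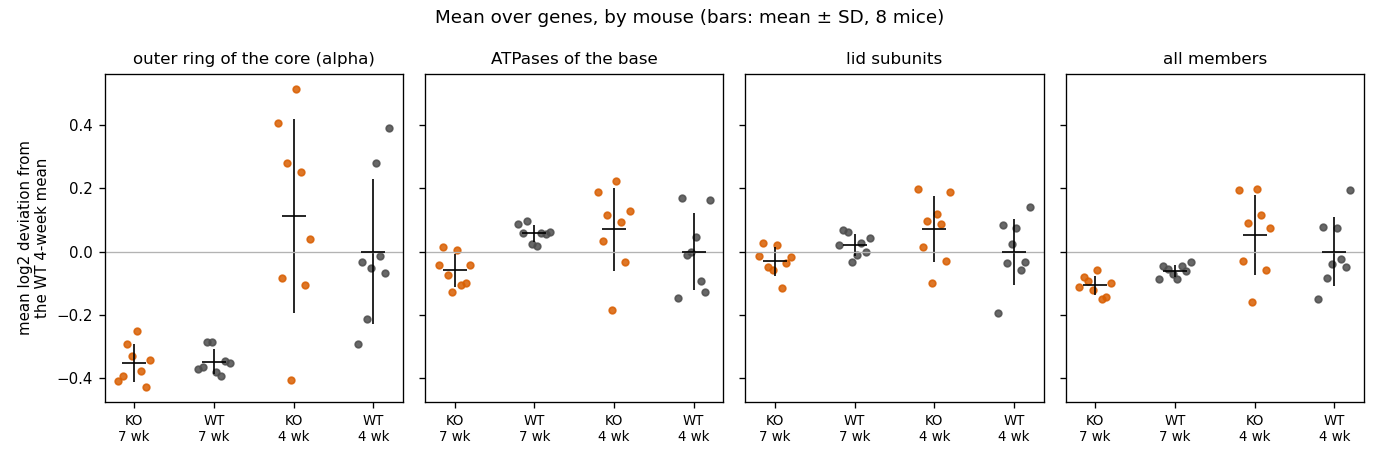
Mean log2 deviation from the WT 4-week mean over the alpha ring, the ATPases, the lid and all 46 genes, 1 point per mouse, KO left of WT at 7 weeks and then at 4 weeks; bars are means ± SD of 8 mice. The alpha ring lies between -0.43 and -0.25 in all 7-week mice and between -0.41 and 0.52 in the 4-week mice.

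Within the 16 mice of 4 weeks, with group means removed, 29 of the 46 genes correlated above 0.5 with the mean of the alpha ring (a gene's own value left out) and 5 below -0.5. The corresponding shares of all other genes were 17.3% and 18%, so genes below -0.5 were a smaller share of the 46 than of all other genes. Psma3 (r = 0.974), gankyrin Psmd10 (0.973), Psmb1 (0.967) and Psma6 (0.966) were most alike. The 5 that ran opposite were Psmd3 (-0.798), Psmf1 (-0.703), Psmd2 (-0.634), Psme3 (-0.62) and Psmd11 (-0.608). The same 5 genes were among those that rose with age in WT mice, and the 4-week mice enter both measures. Within the 16 mice of 7 weeks 3 genes stood above 0.5 and 2 below -0.5, against 4.24% and 7.09% of all other genes. These coefficients describe mice that share tissue, platform and normalization, and no test was made on them. They were not computed again without the 3 arrays of lowest weight.

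Proteasome parts outside the symbol family were also lower at the later age for the most part. Of 6 measured, 5 were lower at 7 weeks in KO mice and 5 in WT mice, among them Sem1, a small lid subunit (-0.47 ± 0.13 in KO, -0.60 ± 0.13 in WT mice), Pomp, the maturation factor of the core (-0.41 and -0.40), and the deubiquitinase Uchl5 (-0.42 and -0.28). Of all genes 21.3% were lower with age in KO mice and 14.1% in WT mice. In KO against WT mice at 7 weeks the deubiquitinase Usp14 alone passed, with 0.18 ± 0.06 (adjusted p = 0.0212).

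Of 13 genes for ubiquitin shuttles and the p97 segregase, 6 were higher and 1 lower with age in each genotype, where 21.4% of all genes were higher in KO mice and 15.4% in WT mice. The shuttle Ubqln4 rose by 0.78 in KO and by 0.68 in WT mice, and the segregase Vcp by 0.28 in KO and by 0.44 in WT mice. At 7 weeks 1 of the 13 was higher in KO than in WT mice, Zfand2a (0.22 ± 0.08, adjusted p = 0.0405), and 1 lower, Ufd1 (-0.21 ± 0.06, adjusted p = 0.00766). Of 6 listed genes for ubiquitin and its activating enzymes 1 was measured, Uba6, with 0.26 ± 0.08 between KO and WT mice at 7 weeks (adjusted p = 0.0162).

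Of 8 genes known to regulate proteasome transcription, 2 were higher and 2 lower in KO than in WT mice at 7 weeks, where 15.6% of all genes were higher and 16.7% lower. Stat3, a signal transducer of cytokines, spanned 10.56, 10.91 and 11.17 in KO mice, against 9.63, 9.67 and 9.72 in WT mice, a wide separation (1.22 ± 0.13, adjusted p = 6.3e-09). Nfe2l2, the antioxidant response factor, spanned 10.51, 10.96 and 11.32 in KO mice, against 10.42, 10.49 and 10.71 in WT mice, with overlap (0.43 ± 0.10, adjusted p = 0.000791). Nfe2l1, the factor that drives proteasome genes when proteasomes are inhibited, did not pass (0.16 ± 0.08, adjusted p = 0.114), while Ngly1, which deglycosylates and so activates that factor, fell by 0.21 (adjusted p = 0.0143) and Nfyc by 0.24 (adjusted p = 0.00437).

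In KO against WT mice at 7 weeks, where 15.6% of all genes were higher and 16.7% lower, antigen processing downstream of the proteasome was higher for 6 of 8 genes, among them the peptide transporter Tap1 (1.29 ± 0.29, adjusted p = 0.000558) and the class I light chain B2m (0.47 ± 0.08, adjusted p = 8.29e-06). Interferon response genes were higher in 11 of 14 cases, T cell markers in 6 of 7 and B and plasma cell markers in 2 of 5, and 0 of these were lower. The loop, distal tubule and collecting duct markers were lower in 2 of 5 cases, podocyte markers in 0 of 3, and tubular injury markers higher in 5 of 5.

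The number of genes lower at 7 weeks depends on how arrays are scaled, and also on the groups in the fit and on the test. The median of all genes on an array was higher in KO than in WT mice at 7 weeks by 0.11. Over all features of an array, including those that name no gene, the median differed by only 0.01. The median deviation of the genes from their own means differed by -0.03, in the opposite direction. Centring each array on the median of all genes put the share of the 46 genes called lower above that of all genes. The share lies below in the fit of all 4 groups as deposited. Over all genes, 23.6% of the calls were in the higher direction with that centring and 48.4% as deposited. For the difference between ages the shares were 33.2% with centring and 57.5% as deposited, and for age in KO mice 35.1% and 50.1%. Psme1, Psmd8, Psmd3, Psmd9, Psmg1, Psmc2 and Psme4 kept their direction and their calls at 7 weeks under this centring.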

How the data were processed

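Gene expression was measured in 32 mouse kidneys. The authors deposited gene-level log2 signals, made with RMA in Affymetrix Expression Console per the labels and the submitters' processing notes; version and genome build are not given in the sources used here. RMA normalizes arrays to a common distribution, so shifts of all genes together are not measured. Raw scans and their dates were not analysed here. All 32 columns were matched to samples.

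Of 41345 features, 23521 named 1 gene, 1814 several and 16010 none. For the 1082 genes with several features the one with the highest mean was used, giving 22180 genes, with no filter on low values. limma 3.58.1 in R 4.3.3 fitted the means of the 4 groups of 8 mice (28 residual degrees of freedom), with Benjamini-Hochberg adjustment of each comparison's p-values across all 22180 genes, with a threshold of 0.05. The number of arrays limits the precision. The fit was tested on simulated data. Within-array differences were compared by exact permutation. Python 3.11.15 with pandas 2.3.3 and matplotlib 3.10.9 made counts and figures.

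The labels number the mice of each group 1 to 8 and name no litter or batch. The genes, gene lists, motifs and tests were chosen with earlier results of these data known. Values are given for the catalytic subunits, for up to 8 genes per direction among those that passed at each age and up to 4 in the other comparisons, or for the 4 largest where none passed; Psmd5, the correlated genes and single list genes beyond these were chosen after their values were seen. Alternatives covered array scaling, feature choice, variance trend, array weights, the samples in the fit, a filter on dim genes, a rank-sum test, the replicate number as a block and leaving out mice.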

Additional observations from a re-analysis of the deposited data

Results flagged for a closer look

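WT 4-week replicate 8 lay far from the other 7 mice of its group in 4 genes: Psme1 at 9.19, Psmb8 at 8.97, Psmb9 at 9.78 and Psmb10 at 9.86 (log2 signal). Gaps were examined in 92 groups of 8 values over 23 genes, and chance marks about 5% of groups. The same mouse had summed signals of 482 over T cell markers, against 238 to 271 in the other WT mice of that age, of 2960 over macrophage markers, against 1249 to 2101, and of 23529 over antigen processing genes, against 14664 to 17104. Its summed signal over proximal tubule markers was 24639, against 28111 to 34172.

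By limma's interaction test, the genotype effect differed between ages for 6 of the 46 genes and 2 of the 3 immunoproteasome subunits. Of all genes, 9.8% were called more positive at 7 weeks and 7.24% more negative. The effect was more positive at 7 weeks for Psme1 (0.76), Psmd8 (0.26), Psmb8 (1.24) and Psmb10 (1.502). It was more negative for Psmc2 (-0.29), Psmd3 (-0.37), Psmd5 (-0.29) and Psmd9 (-0.28). With each of the 32 mice left out in turn, Psmd5 was lost in 16 cases and Psmd9 in 24. Without WT 4-week replicate 8 the differences were 0.89 for Psmb8 (adjusted p = 6.19e-05) and 1.14 for Psmb10 (adjusted p = 5.04e-06), and that of Psmb9 was 0.62 and passed (adjusted p = 0.00204).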

How the results depend on the processing

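Settings other than the reported one are taken 1 at a time. The 7 genes called at 7 weeks kept their calls under every setting run, each mouse left out included, except Psme4 under the exact rank-sum test. The count of genes higher at 7 weeks was 4 with array weights (8.7%, against 18.7% of all genes). The count lower was 22 with array median centring (47.8%, against 37.5%), 9 with array weights (19.6%, against 23.1%), 11 with only the compared groups in the fit (23.9%, against 21%) and 11 with the rank-sum test (23.9%, against 19.2%). Fitting only the compared groups added calls for Psmb1, Psmb7, Psmc5, Psmc6, Psmd5, Psmd10 and Psmd12. For the difference between ages, array median centring gave 1 higher (Psme1, 2.17%, against 7.54% of all genes) and 11 lower (23.9%, against 15.1%). Centring on the median deviation, added after seeing the data, gave 2 lower (4.35%, against 6.07%). The count lower ran from 2 to 5 with single mice left out. For age in WT mice array median centring gave 7 lower (15.2%, against 12.2%), without Psma1, Psmb3, Psmd8, Psme4 and Psmg4. For age in KO mice that centring lost Psmd11 and Psme3. With single mice left out, 13 of the 19 calls for age in WT mice and 23 of the 28 in KO mice were kept in every case. The 3 arrays of lowest weight (KO 4-week replicates 4 and 5 and WT 4-week replicate 8) were also left out, chosen after seeing the data. Without them, 2 genes were higher at 7 weeks (4.35%, against 16.8% of all genes) and 7 lower (15.2%, against 18.8%). Age then gave 6 higher (13%, against 21.4%) and 25 lower (54.3%, against 20.9%) in KO mice. In WT mice it gave 8 higher (17.4%, against 16%) and 10 lower (21.7%, against 14.8%).

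Of the limma calls among the 46 genes (7 at 7 weeks, 6 for the difference between ages, 28 for age in KO and 19 in WT mice), 0 changed sign under the settings run. Of the differences that had not passed, Psmb6 at 4 weeks was -0.0141 with array median centring, -0.0013 without the 3 arrays, and -0.0389 to 0.0289 with single mice left out, and Psmb7 was -0.0199 to 0.1248. At 7 weeks Psmb5 was -0.0989 with array median centring and -0.001 to 0.0344 with mice left out, and Psmb6 was 0.0297 with median-deviation centring, 0.0187 with array weights and -0.0241 to 0.0239 with mice left out. The 4-week pair differences ran from -0.3506 to 0.2743 (Psmb9 minus Psmb6), -0.1441 to 0.2954 (Psmb10 minus Psmb7) and -0.3585 to 0.0575 (Psmb8 minus Psmb5) with mice left out. The causes were not tested.

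With the replicate number as a block (replicate block), 2 genes were higher at 7 weeks (4.35%, against 15.6% of all genes) and 6 lower (13%, against 16.3%). The difference between ages had 2 higher (4.35%, against 9.78%) and 3 lower (6.52%, against 7.09%). Mice of the same number did not deviate together: correlations ran from -0.122 to 0.11 at 7 weeks and from -0.27 to 0.232 at 4 weeks, and 2 of 8 and 1 of 8 mice correlated best with their own number, so the numbers are not taken as pairs.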
